A study of Homo sapiens with 32 samples.

Results

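CLU, BIK and TXNIP are 3 genes of cell stress and cell death that were read on cDNA arrays of tamoxifen-treated breast cancer xenografts. All probes that the study's supplementary list gives one of these symbols were taken, which came to 6 of the 9912 probes on the arrays and 6 of the 333 probes with a gene name. CLU and BIK have 1 probe each (179681_A and stSG89201) and TXNIP has 4 (298367_A, 359721_A, 299497_B and 298452_A). The list was drawn up by the study from changes on these same arrays and puts all 6 probes in its set 6, so a difference from the control pool describes these probes and is no independent evidence of their direction. In GRCh38.p14, CLU lies on chromosome 8 (27596917 to 27614700), BIK on chromosome 22 (43110750 to 43129712) and TXNIP on chromosome 1 (145992435 to 145996579), and all 3 code for proteins. Which exon each spotted cDNA comes from was not determined here.

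CLU encodes clusterin, a secreted glycoprotein that binds unfolded proteins outside the cell as a chaperone does and that is known to rise in hormone-dependent tissues after hormone withdrawal. BIK encodes a BH3-only member of the BCL2 family, a protein of the endoplasmic reticulum membrane that binds and blocks the survival proteins of that family, and it is known from cultured breast cancer cells to rise when estrogen is withdrawn or blocked. TXNIP encodes an alpha-arrestin that binds thioredoxin, a small protein that keeps other proteins reduced, and that lowers glucose uptake. Its transcription follows the supply of glucose through the factors MondoA and ChREBP with their partner MLX.

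The arrays compared 16 tamoxifen-treated tumors from 12 mice with 1 control pool. All tumors grew from ZR-75-1, an established human breast cancer cell line with the estrogen receptor, as fragments passaged under the skin of female nu/nu mice, which lack T cells but keep their other host cells. The treated mice received estradiol (E2) from a slow-release pellet together with 2.5 mg of tamoxifen released over 60 days, and tumors were taken after 1 day (4 tumors, 2 mice), 2 days (2 tumors, 2 mice), 4 days (4 tumors, 3 mice), 7 days (4 tumors, 3 mice) and 14 days (2 tumors, 2 mice). The control pool was RNA from xenografts of mice that had E2 alone. These were taken at day 0 and on the first 3 of these time points (1, 2 and 4 days). The pool mixes its days, so no day of treatment has a control of its own. At days 7 and 14, which the pool does not cover, the effects of tamoxifen and of time in the host cannot be told apart. Each tumor was hybridized against the pool on a forward and a dye-swap array, and the value of a tumor is the mean log2 ratio of both. The ages of the mice are not given in the sources used here.

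Of the 32 arrays 31 were used. One dye-swap array, titled day 4 replicate 4 and tied by its source label to the tumor of day 4 replicate 3, was not used. Its ratios correlated at -0.88 with another tumor's array (day 4 replicate 2, forward) and at -0.29 with its own partner. The forward arrays correlated with each other at 0.24 or more over all probes. Both tumors of day 14 came from different mice, and where a mouse gave 2 tumors the mouse was a block in the fit. A tumor is a mixture of cells, so a larger share of cells with a transcript and more transcript per cell cannot be told apart here. Counts of marker genes are read beside the 3.32% of all probes called higher and the 2.95% called lower at day 14, and named probes are those the study chose for changing. Of the marker lists, the luminal tumor cell list had 8 of 19 genes named, of which 4 were higher and 2 lower at day 14, with CD24 at a mean log2 ratio of 1.24 and TFF1, an estrogen-induced secreted peptide, at -2.11. The fibroblast and matrix list had 2 of 15 named, and both were lower at day 14 (MGP -1.15 and FN1 -0.61). The erythroid list had 2 of 11 named, neither of which passed the test at day 14 (HBG1 -1.11, adjusted p = 0.106, and a globin probe shared by several genes -0.93, adjusted p = 0.165 by limma). Of these, the shared globin probe was lower at day 4 (-1.16 ± 0.59, SD, n = 4, adjusted p = 0.0488 by limma), when CLU and TXNIP were called higher, with HBG1 at -1.10 (adjusted p = 0.0639 by limma). The median of both was -1.13 at day 4, 0.12 at day 7 and -1.02 at day 14. Leukocyte, endothelial and adipocyte markers were not analysed here, since none of those listed was matched to a named probe. The part of host cells in the ratios below was not tested, nor was it tested whether the cDNA spots also bind mouse transcripts.

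In the RefSeq promoter table (GRCh38.p14) 1 of the 3 genes was matched, TXNIP. The 250 bases upstream of its start site are shown because they carry the letters through which the glucose-sensing factors are known to act on this gene. They lie on the minus strand of chromosome 1, at chr1:145996580-145996829, and read 5′ to 3′. Capitals mark a pair of E-box-like motifs (CACGAG, 5 bases, CACGAG), both CCAAT boxes (the first as its reverse complement, ATTGG) and a forkhead core (GTAAACA):

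TXNIP upstream: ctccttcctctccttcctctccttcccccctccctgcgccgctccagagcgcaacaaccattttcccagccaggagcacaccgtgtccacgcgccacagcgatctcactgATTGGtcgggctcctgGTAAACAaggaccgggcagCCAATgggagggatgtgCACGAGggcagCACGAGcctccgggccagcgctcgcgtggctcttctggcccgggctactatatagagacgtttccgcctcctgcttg

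The pair stands 88 to 72 bases before the start. On either strand, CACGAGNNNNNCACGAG was found in the upstream 250 bases of 2 of 35116 promoters in the table (0.0057%), 1 of TXNIP and 1 of KCTD5. TXNIP has 2 promoters there, and its other one does not hold the pair. CCAAT was found 2 times, 140 to 136 and 105 to 101 bases before the start, and 32% of promoters hold it. GTAAACA stands 124 to 118 bases before the start (2.98% of promoters), and TATATA, which is left in lower case, 29 to 24 bases before it (3.73%). No match was found for the estrogen response element GGTCANNNTGACC (0.0399% of promoters), for GGTCA alone, a part of that element (32.6%), or for the E-box CACGTG (6.34%). These are matches of letters, and binding was not measured.

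All 3 genes were higher in tamoxifen-treated tumors than in the control pool, with their highest means at day 14. There they stood at about 2 times the level of the pool in the main fit. With no background correction the log2 ratios at day 14 were 0.76 for CLU, 0.62 for BIK and 0.98 for TXNIP. CLU was above the pool in all 16 tumors and passed the test at every time point, BIK passed it at days 7 and 14, and the brightest TXNIP probe at days 1, 4 and 14. With 1 mean per mouse in place of 1 value per tumor, CLU at day 1 (adjusted p = 0.268 by limma), BIK at day 7 (0.142) and TXNIP at days 1 and 4 (0.250 and 0.111) no longer passed, and 6 of all probes were called higher at day 1, against 298 with single tumors. Over 30 alternatives of processing or of tumors used, the calls of CLU were lost in 7, 6, 2, 4 and 1 from day 1 to day 14. Those of BIK were lost in 10 at day 7 and 1 at day 14. Those of the brightest TXNIP probe were lost in 6 at day 1, 16 at day 4 and 1 at day 14. Among these alternatives, leaving out a tumor of another day hardly changes the mean of a day. Ratios are log2 of tumor over pool, so 0 means equal and 1 means 2-fold the level of the pool. The direction is likely rather than settled. It follows the study's value table and supplementary list, and with the channel numbers of the sample labels every sign would turn. With the sign used here, the estrogen-induced genes TFF1 and TFF3 were lower at day 14, at -2.11 and -1.94. The paper reports that TFF3 protein, seen by immunohistochemistry, also fell over time in this xenograft model. Tests are limma's, in 1 fit over all 16 tumors, and adjusted p values are over all 9912 probes (Benjamini-Hochberg). The pool is 1 sample whose own spread is not in the tests.

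The number of the 6 probes called higher by limma was 4 on day 1 (of all 9912 probes, 3.01% were called higher that day), 1 on day 2 (0.141%), 3 on day 4 (0.373%), 2 on day 7 (0.242%) and 6 on day 14 (3.32%). These shares are given as background only, since the study's list was made from the same contrast. Likewise, 4 of the 6 probes were above the pool in all 16 tumors (CLU and the 3 brighter TXNIP probes), as were 124 of the 9865 probes with a value in every tumor (1.26%).

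**Figure D1:**
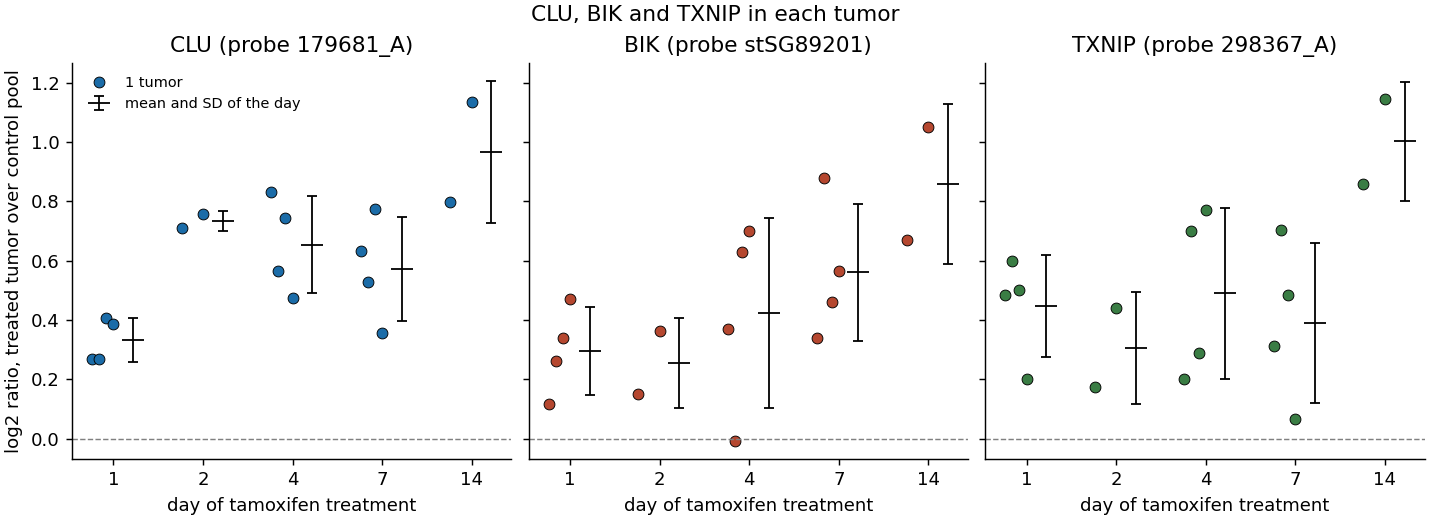
Log2 ratio of treated tumor over control pool (vertical axis) by day of tamoxifen treatment (horizontal axis) for CLU, BIK and the brightest TXNIP probe, with 1 point per tumor, the mean and SD of each day beside the points and a dashed line at equality with the pool. All points lie above the line except 1 BIK tumor of day 4 at -0.01, and the highest point in each panel is a tumor of day 14 (1.13 for CLU, 1.05 for BIK and 1.14 for TXNIP).

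By the SD within a day, the secreted chaperone CLU had the steadiest values of the 3 genes on days 1 to 7. The brightest probe stands here for TXNIP. At day 14 the SD was 0.24 for CLU, 0.27 for BIK and 0.20 for TXNIP. The 4 tumors of day 1 had CLU log2 ratios of 0.27, 0.27, 0.41 and 0.39, and on day 2 both had more, 0.71 and 0.76. The tumors of day 4 had 0.83, 0.57, 0.74 and 0.47, and those of day 7 had 0.63, 0.53, 0.77 and 0.36. At day 14 the values were 0.80 and 1.13. All tumors of day 2 and day 4 were thus above all tumors of day 1, whereas the lowest tumor of day 7 fell inside the range of day 1, and 1 of the 14 earlier tumors was above the lower tumor of day 14.

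As means, CLU was at 0.33 ± 0.07 at day 1 (SD, n = 4 tumors, adjusted p = 0.0312 by limma), 0.73 ± 0.03 at day 2 (n = 2, adjusted p = 0.00616 by limma) and 0.65 ± 0.16 at day 4 (n = 4, adjusted p = 0.00107 by limma). At day 7 it was at 0.57 ± 0.18 (n = 4, adjusted p = 0.00584 by limma) and at day 14 at 0.97 ± 0.24 (n = 2, adjusted p = 0.000186 by limma), a 1.95-fold level. From the highest to the lowest mean the order was day 14, 2, 4, 7 and 1. Day 14 lay 0.23 above day 2 (95% confidence interval -0.13 to 0.60), and day 2 lay 0.40 above day 1 (0.08 to 0.72, adjusted p = 0.618 by limma).

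The BCL2 family member BIK varied more within a day. Its log2 ratios were 0.12, 0.26, 0.34 and 0.47 in the tumors of day 1, and 0.15 and 0.36 in those of day 2. At day 4 they were 0.37, -0.01, 0.63 and 0.70, and at day 7 they were 0.34, 0.88, 0.46 and 0.56. The tumors of day 14 had 0.67 and 1.05. The lower tumor of day 14 was exceeded by 2 of the 14 earlier tumors, and the days from 1 to 7 overlapped throughout.

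BIK averaged 0.30 ± 0.15 at day 1 (SD, n = 4, adjusted p = 0.136 by limma), 0.26 ± 0.15 at day 2 (n = 2, adjusted p = 0.488 by limma) and 0.42 ± 0.32 at day 4 (n = 4, adjusted p = 0.0825 by limma), none of which passed the test. It averaged 0.56 ± 0.23 at day 7 (n = 4, adjusted p = 0.0332 by limma) and 0.86 ± 0.27 at day 14 (n = 2, adjusted p = 0.00373 by limma), a 1.81-fold level. The tumor at -0.01, day 4 replicate 2, is the mean of 2 orientations that went apart, -0.54 on the forward and 0.53 on the dye-swap array. Without that tumor day 4 averaged 0.57 (adjusted p = 0.0692 by limma).

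The thioredoxin-binding arrestin TXNIP was read by 4 probes of very different brightness. The brightest, 298367_A, had log2 ratios of 0.48, 0.60, 0.50 and 0.20 in the tumors of day 1 and 0.17 and 0.44 in those of day 2. It had 0.20, 0.70, 0.29 and 0.77 at day 4, and 0.31, 0.70, 0.48 and 0.07 at day 7. At day 14 it had 0.86 and 1.14. Both tumors of day 14 were above all 14 earlier tumors, the highest of which stood at 0.77. The lowest tumors of days 1, 2, 4 and 7 stood at 0.20, 0.17, 0.20 and 0.07.

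This probe averaged 0.45 ± 0.17 at day 1 (SD, n = 4, adjusted p = 0.0280 by limma), 0.31 ± 0.19 at day 2 (n = 2, adjusted p = 0.400 by limma) and 0.49 ± 0.29 at day 4 (n = 4, adjusted p = 0.0492 by limma). It averaged 0.39 ± 0.27 at day 7 (n = 4, adjusted p = 0.147 by limma) and 1.00 ± 0.20 at day 14 (n = 2, adjusted p = 0.00120 by limma), a 2.00-fold level. The means of days 1 to 7 lay closer together than the tumors within day 4 or day 7.

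The other TXNIP probes moved broadly with the brightest one, but on different scales and not in every tumor. Probe 359721_A averaged 0.47, 0.34, 0.53, 0.56 and 1.23 over the 5 time points, with 1.19 and 1.27 in the tumors of day 14 and 1.20 in day 7 replicate 2. Probe 299497_B averaged 0.70, 0.41, 0.70, 0.48 and 0.91, with 0.65 and 1.18 at day 14, and 6 of the 14 earlier tumors were above the lower of these. The dim probe 298452_A averaged 0.27, -0.08, 0.24, 0.26 and 0.60, with 0.55 and 0.66 at day 14. Adjusted p values at day 14 were 0.000857, 0.00576 and 0.0438 by limma, in the same order of probes. At day 1 only 359721_A and 299497_B of these passed (0.0465 and 0.00550 by limma). The call of 359721_A at day 1 was lost in 12 of 30 alternatives (adjusted p up to 0.357 by limma) and that of 298452_A at day 14 in 10 of 30 (up to 0.406 by limma).

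**Figure D2:**
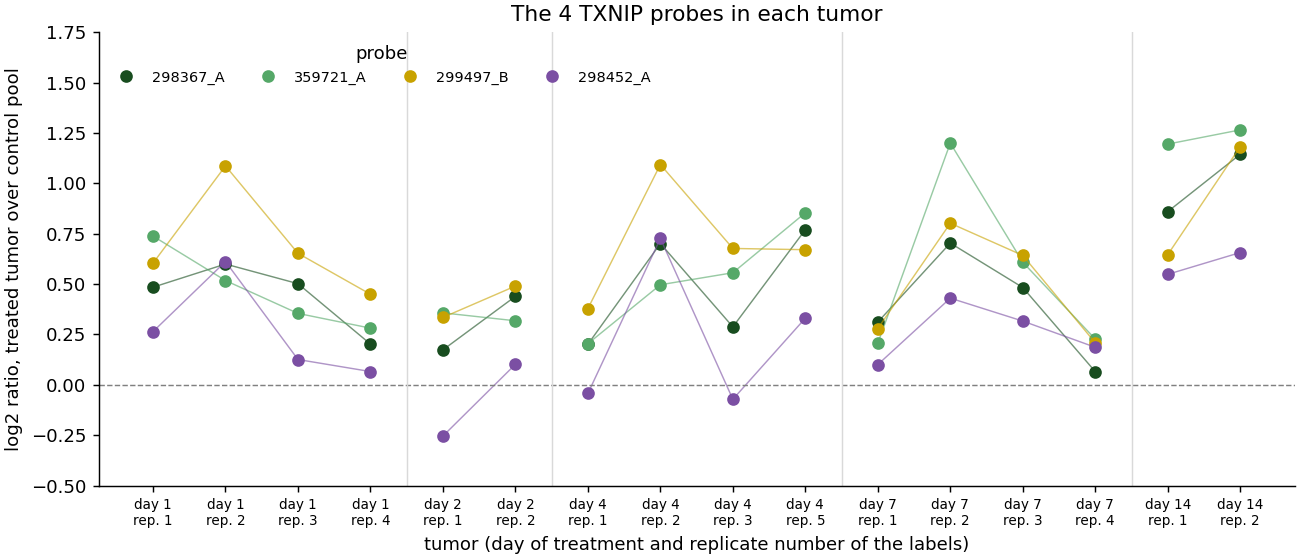
Log2 ratio of treated tumor over control pool (vertical axis) of the 4 TXNIP probes in each of the 16 tumors (horizontal axis, by day and replicate number of the labels), with thin lines joining the tumors of a day for each probe. The probes go up and down together in many but not all tumors, and 298452_A is the lowest in 13 of 16 tumors. From day 1 replicate 1 to replicate 2, 359721_A falls from 0.74 to 0.52 while 299497_B rises from 0.60 to 1.09.

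Over the 4 TXNIP probes, the range within a tumor had a median of 0.53 and went from 0.16 (day 7 replicate 4) to 0.77 (day 7 replicate 2). Probe 298452_A was the lowest in 13 of 16 tumors, and the highest was 299497_B in 8 tumors and 359721_A in 7. Across the 16 tumors the probes correlated pairwise at 0.60 to 0.85 (Pearson's r, a description, since they share the tumors and the pool). In the 14 tumors of days 1 to 7 alone, r lay between 0.46 (359721_A with 298452_A) and 0.80 (298367_A with 299497_B). The mean of the 4 probes was 0.47 ± 0.19, 0.24 ± 0.13, 0.49 ± 0.26, 0.42 ± 0.28 and 0.94 ± 0.18 from the earliest to the latest time point (SD, n = 4, 2, 4, 4 and 2). The highest of these means outside day 14 were 0.78 (day 7 replicate 2), 0.75 (day 4 replicate 2) and 0.70 (day 1 replicate 2), against 0.81 and 1.06 at day 14.

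The spots themselves were unequal in brightness. Over both channels of the 31 arrays, the spot was a median of 194 times as bright as its local background for TXNIP 298367_A, 81.0 times for 359721_A and 80.1 times for 299497_B, but 6.69 times for BIK, 5.65 times for CLU and 5.31 times for TXNIP 298452_A. No spot of these probes was missing, carried the mark 0 or was saturated.

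The raw brightness, before any normalization, was above the pool in the tumors of day 14. CLU had 616 and 887 units in the tumors against 330 and 331 in the pool on the forward arrays, and 684 and 1068 in the tumors against 278 and 536 in the pool on the dye swaps. BIK had 577 and 1009 in the tumors against 354 and 415 in the pool on the forward arrays, and 450 and 842 against 237 and 466 on the dye swaps. TXNIP 298367_A had 19452 and 24911 in the tumors against 9855 and 9213 in the pool on the forward arrays, and 20562 and 29075 against 4437 and 10821 on the dye swaps. The tumor channel was the brighter one on all 4 arrays of day 14 for each of these probes. Over all spots, the median raw log2 ratio of tumor over pool was 0.42 and 0.44 on the 2 forward arrays of day 14. It was -0.22 and 0.30 on the 2 dye swaps. Part of the raw difference on the forward arrays was thus shared by a typical spot. On earlier days the raw channels were less even. The median raw log2 ratio of tumor over pool over all spots lay between 0.05 and 1.23 on the 14 forward arrays of days 1 to 7 and between -1.38 and 0.22 on the 13 dye swaps. The tumor channel of CLU was the brighter one on 14 of these forward arrays but on 2 of the 13 dye swaps, that of BIK on 14 and 2, and that of TXNIP 298367_A on 13 and 9. Set against the median of its own array, the raw ratio was higher on 14 forward arrays and 13 dye swaps for CLU, on 13 and 13 for BIK, and on 8 and 12 for TXNIP 298367_A. The rises of days 1 to 7 in CLU and BIK are therefore seen relative to the other spots of an array, not in the raw channels of both orientations. That of TXNIP 298367_A was less even relative to the other spots, with 8 of 14 forward arrays above their median. With median centring in place of loess and quantile normalization, this probe stood at 0.44, 0.08, 0.29 and 0.37 on days 1, 2, 4 and 7.

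**Figure D3:**
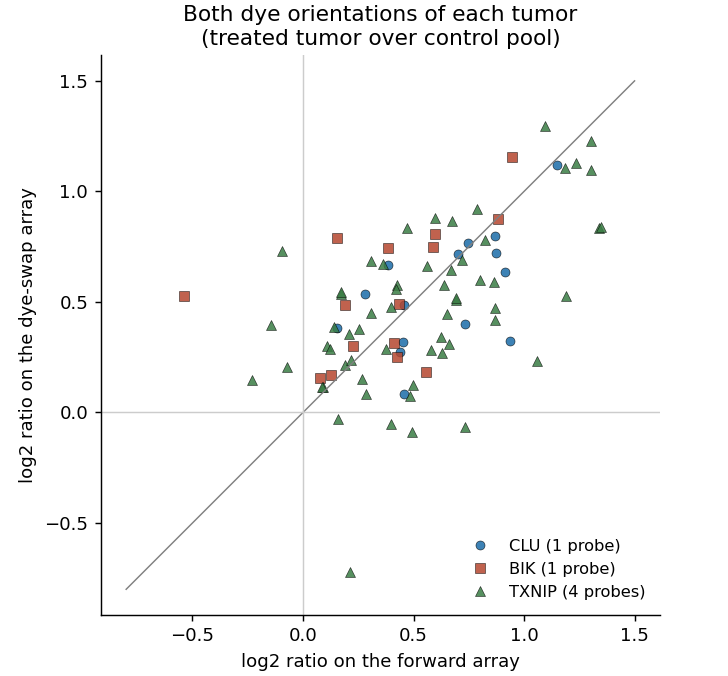
Log2 ratio of treated tumor over control pool on the forward array (horizontal axis) and on the dye-swap array (vertical axis), with 1 point per probe and tumor for the 15 tumors with both arrays, and a diagonal line of equality. CLU lies above 0 on both axes in all 15 tumors, and the BIK point at -0.54 and 0.53 is day 4 replicate 2.

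Over the 15 tumors with both orientations, CLU was above the pool on both arrays in 15, BIK in 14, and the TXNIP probes in 12 (298367_A), 14 (359721_A), 14 (299497_B) and 11 (298452_A). The forward value minus the dye-swap value averaged 0.09 for CLU, -0.17 for BIK, and 0.20, -0.20, 0.27 and 0.02 for the TXNIP probes in that order. The TXNIP probes thus leaned to different orientations, and these leanings cancel in a mean over both. In day 4 replicate 3, which has the forward array alone, they do not cancel. There CLU stood at 0.74, BIK at 0.63 and TXNIP 298367_A at 0.29. With the left-out array put in as labelled, CLU averaged 0.51 at day 4 (adjusted p = 0.210 by limma) and TXNIP 0.35 (adjusted p = 0.983 by limma), so neither passed the test there. In that setting 0 of all 9912 probes were called higher and 0 lower at day 4, against 37 and 69 in the main fit. The loss was therefore not particular to these genes.

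Tumors of the same mouse were not more alike in a uniform way. The 4 pairs of tumors from 1 mouse differed by a median of 0.14 for CLU, 0.14 for BIK and 0.36 for TXNIP 298367_A. The 14 other pairs of tumors of the same day differed by a median of 0.14 for CLU, 0.29 for BIK and 0.26 for TXNIP 298367_A.

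Among all probes, those of the 3 genes lay in the upper tail at day 14. Ranked by the mean log2 ratio of day 14, CLU was at place 53 of 9912, BIK at 80, and the TXNIP probes at 45 (298367_A), 25 (359721_A), 64 (299497_B) and 246 (298452_A). The middle of all probes was at 0.00, with 5th and 95th percentiles of -0.44 and 0.45. Among the 333 named probes alone the 95th percentile was 1.23, and there CLU was at place 37, BIK at 54 and TXNIP 298367_A at 32.

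**Figure D4:**
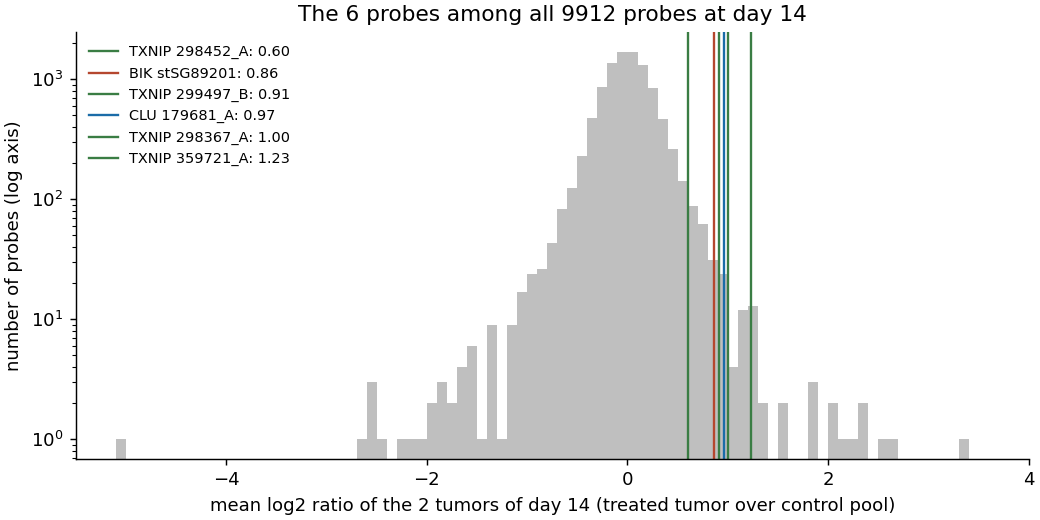
Number of probes (vertical axis, logarithmic) by mean log2 ratio of treated tumor over control pool in the 2 tumors of day 14 (horizontal axis) for all 9912 probes, with the 6 probes of CLU, BIK and TXNIP as colored lines. The lines stand between 0.60 and 1.23, above the 95th percentile of all probes at 0.45.

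The control pool cancels when days are set against each other. A difference between days still holds time in the host, which cannot be told apart from time on tamoxifen. The study's sets were made from the course over days too, so this comparison is not independent of its choice of probes either. Day 14 exceeded the mean of the 4 earlier days by 0.39 for CLU (95% confidence interval 0.11 to 0.67, adjusted p = 0.243 by limma), by 0.47 for BIK (0.11 to 0.84, adjusted p = 0.278 by limma) and by 0.59 for TXNIP 298367_A (0.23 to 0.96, adjusted p = 0.155 by limma). The other TXNIP probes gave 0.75 (359721_A), 0.34 (299497_B) and 0.43 (298452_A), with adjusted p values of 0.131, 0.535 and 0.351 by limma. None of the 6 probes passed the test in this comparison, in which 0.202% of all probes were called higher. Without adjustment 5 of the 6 had a p under 0.05.

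The same held for the course as a whole. The F-test over the 5 days gave adjusted p values of 0.353 for CLU, 0.524 for BIK and 0.490 for TXNIP 298367_A by limma, and 3 of the 6 probes had an unadjusted p under 0.05. It called 0.0807% of all probes. Of 48 differences between days (8 for each probe) none passed after adjustment by limma, 20 had an unadjusted p under 0.05, and the smallest adjusted p was 0.0877 by limma, for CLU at day 14 minus day 1 (0.63, 95% confidence interval 0.31 to 0.95). Between neighbouring time points up to 7 days, the steps were 0.40, -0.08 and -0.08 for CLU, -0.04, 0.17 and 0.14 for BIK, and -0.14, 0.18 and -0.10 for TXNIP 298367_A.

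The calls of day 14 rest on 2 tumors. Without day 14 replicate 2, which had the higher value for each of the 6 probes, none of them passed the test at day 14, with 0.80 for CLU (adjusted p = 0.0612 by limma), 0.67 for BIK (adjusted p = 0.231 by limma) and 0.86 for TXNIP 298367_A (adjusted p = 0.120 by limma). That fit called 15 of all probes higher at day 14, against 329 with both tumors.

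The 3 genes did not follow each other closely from tumor to tumor. Pearson's r across the 16 tumors was 0.43 between CLU and BIK, 0.33 between CLU and TXNIP 298367_A and 0.47 between BIK and TXNIP 298367_A. Within the 14 tumors of days 1 to 7 it was 0.07, -0.22 and 0.08. These are descriptions over tumors that share the pool. The tumors of day 14 were high in all 3 genes.

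Other named genes were closer to each of them, all chosen by r over the 16 tumors with 1 probe per gene. The 3 most like CLU were PTPN13, a protein tyrosine phosphatase (r = 0.81, and 0.65 within days 1 to 7), FOXJ1, the transcription factor of motile cilia (0.80 and 0.63), and PERP, a membrane protein of desmosomes that is also a p53 target (0.76 and 0.54). FOXJ1 averaged 2.37 at day 14 against a median of 0.34 in the earlier tumors, so it moved over a wider range than CLU.

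The 3 most like BIK were ATP8A1, a phospholipid flippase (0.85 and 0.76), TMEM23, a sphingomyelin synthase now called SGMS1 (0.82 and 0.74), and PIP, the secreted prolactin-induced protein (0.78 and 0.68). The 3 most like TXNIP were FGF18, a secreted growth factor (0.87 and 0.88), SEL1L, which takes misfolded proteins out of the endoplasmic reticulum for degradation (0.86 and 0.71), and ABCC5, an efflux pump (0.82 and 0.66). FGF18 had 0.69 and 0.78 at day 14, inside the range of its earlier tumors, which reached 0.86. Its likeness to TXNIP therefore did not come from day 14 alone.

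The other genes of stress and death with a name on these arrays moved in both directions. The named probes are those the study chose for changing, so the counts below say which genes moved and not how often such genes do. At day 14, 3.32% of all probes were called higher and 2.95% lower, and at day 1, 3.01% higher and 3.59% lower.

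BIK is the only one of 21 listed BCL2 family genes with a name. Of 40 caspases, death receptors and other death regulators 7 are named, of which 3 were higher and 3 lower at day 14 (2 and 1 at day 1), with a median log2 ratio of 0.41 at day 14. Higher were IER3, an early response gene that takes part in the control of cell death (1.28 ± 0.14, adjusted p = 0.00524 by limma), PERP (0.86 ± 0.30, adjusted p = 0.000578 by limma) and PTPN13 (0.70 ± 0.25, adjusted p = 0.00426 by limma), all SD with n = 2. Lower were PHLDA2, an imprinted growth-restraining gene (-1.18 ± 0.08, adjusted p = 7.02e-05 by limma), and, named after their values were seen, IL24, a cytokine, at -0.89 and -1.11, and SIAH2, a ubiquitin ligase induced by estrogen, at a mean of -0.86.

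Of 36 chaperones and genes of protein quality control in the endoplasmic reticulum 5 are named, and 3 were higher and 1 lower at day 14 (2 and 1 at day 1). CLU was joined by CREB3L4, a membrane-bound transcription factor of the endoplasmic reticulum (0.91 ± 0.13, adjusted p = 0.000260 by limma), and SEL1L (0.76 ± 0.07, adjusted p = 0.00118 by limma). FKBP5, a cytosolic partner of HSP90, was lower (-0.94 and -0.93 in the 2 tumors, adjusted p = 0.00903 by limma). The median of the list at day 14 was 0.76, against 0.00 over all probes.

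Of 32 genes of the thioredoxin system and redox defense 4 are named, and 2 were higher and 1 lower at day 14 (3 and 1 at day 1). TXNIP rose beside SELENBP1, a selenium-binding protein (1.07 ± 0.12, adjusted p = 0.000236 by limma). TST, a mitochondrial sulfurtransferase, was lower (-0.62 ± 0.15, adjusted p = 0.00945 by limma). FTL, the light chain of the iron store ferritin, had 0.01 and 0.14 and did not pass the test (adjusted p = 0.935 by limma). Thioredoxin itself and its reductases were not analysed here. TXNIP is also the only 1 of 14 listed alpha-arrestins and sugar-sensing genes with a name.

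Of 32 genes of growth arrest and acute stress 7 are named, with 2 higher and 1 lower at day 14 (3 and 0 at day 1) and a median of 0.31. Beside IER3, RHOB, a stress-induced small GTPase, was higher (0.72 ± 0.04, adjusted p = 0.00349 by limma). FOS, an early response transcription factor, was lower (-1.12 ± 0.43, adjusted p = 0.0442 by limma). DUSP4, a phosphatase of MAP kinases, had 0.79 and 1.05 and did not pass the test (adjusted p = 0.138 by limma).

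**Figure D5:**
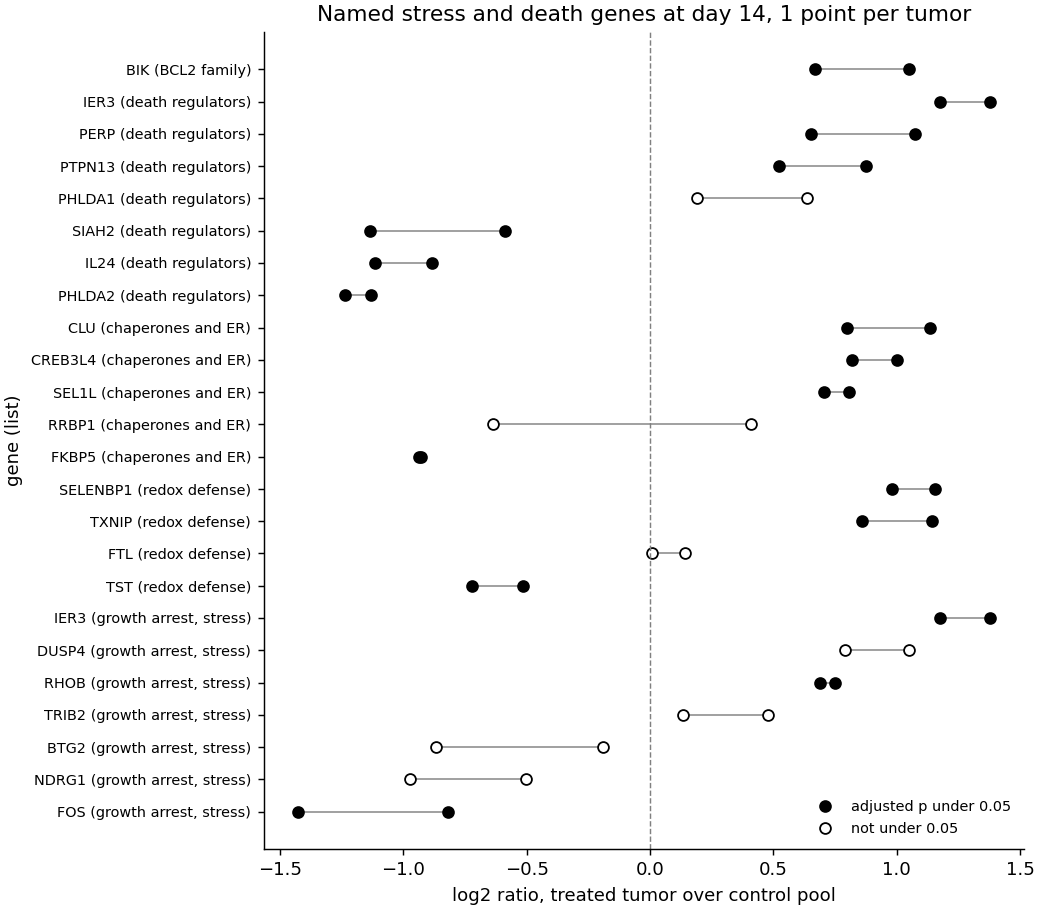
Log2 ratio of treated tumor over control pool at day 14 (horizontal axis) for the named genes of 5 lists (vertical axis), with 1 point per tumor and a line joining both tumors, filled where the adjusted p was under 0.05. BIK, CLU and TXNIP lie between 0.67 and 1.14, and genes of the death, chaperone, redox and stress lists lie on both sides of 0.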

How the data were processed

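RNA of 16 treated xenografts was set against 1 control pool on 2-colour cDNA arrays. The authors deposited scanner intensity for each channel of each spot and of the area around it, with no correction. The deposited log2 values are the authors' ratios per array, made with limma by background correction, loess and quantile normalization (version not given in the sources used here), and they served as an alternative. R 4.3.3, limma 3.58.1 and statmod 1.5.0 were used. Spots marked 0 (meaning not stated) were dropped, followed by normexp (offset 50), loess, quantile normalization and the mean of both orientations per tumor. lmFit with a mean for each day, the mouse as a block by duplicateCorrelation (0.0206), eBayes and Benjamini-Hochberg adjustment over 9912 probes gave all tests, with a threshold of 0.05. No probe was filtered for dimness. The number of arrays limits the precision. The fit was tested on simulated data with independent noise in each tumor. Those data held no mouse effect, error of the pool or dye effect, so that check does not cover these.

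Gene names come from the study's supplementary list and positions from RefSeq. Of 253 named genes 217 symbols were in RefSeq. The genes, lists and tests were chosen with earlier results of these data known. Named were all probes of the 3 genes, the 3 genes most like each by Pearson's r, and up to 4 genes of each list with the smallest adjusted p at day 14. The brightest probe stands for a gene. An item of the redox list is not reported here. Figures were drawn with matplotlib 3.10.9. Alternatives changed the background correction, normalization, spot marks, dim probes, mouse block, dye term, array weights, the left-out array, the source of the values and single tumors.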

Additional observations from a re-analysis of the deposited data

How the results depend on the processing

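At day 14 the calls of CLU, BIK and TXNIP (298367_A) held in 29 of 30 alternatives and were lost without day 14 replicate 2. All values stayed positive. Only 2 of the 30 took out a tumor of day 14. Leaving out a tumor of another day kept the day 14 means as they were and could alter only the test. The count of 29 is therefore little evidence that these calls are stable. Over the 30 alternatives day 14 lay at 0.76 to 1.13 for CLU, 0.62 to 1.05 for BIK and 0.86 to 1.20 for TXNIP. The lowest values of the dim probes of CLU and BIK came with no background correction. That setting also put CLU at 0.45 at day 2, against 0.73 in the main fit. Leaving out 1 tumor gave at day 14 0.80 to 1.13 for CLU, 0.67 to 1.05 for BIK and 0.86 to 1.14 for TXNIP. It gave 0.31 to 0.35 (CLU) and 0.40 to 0.53 (TXNIP) at day 1, 0.71 to 0.76 (CLU) at day 2, 0.40 to 0.59 (TXNIP) at day 4, and 0.50 to 0.64 (CLU) and 0.45 to 0.64 (BIK) at day 7, with calls lost in 5, 4, 1, 10, 1 and 6 of 16 runs. CLU at day 2 lost its call without day 2 replicate 1 (0.76, adjusted p = 0.245 by limma).

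Calls lost in other settings, with adjusted p by limma, were as follows. CLU at day 2 had 0.60 with loess only (0.0541), 0.73 with median centring (0.0565), 0.55 in the deposited value table (0.141, and 0.0890 without 1 array of day 7, a setting chosen after seeing the data) and 0.73 in a fit of that day's tumors alone (0.376). That fit of single days also lost CLU at day 4 (0.65, 0.0874) and day 7 (0.57, 0.111), TXNIP at day 4 (0.49, 0.339) and BIK at day 7 (0.56, 0.131). With 1 mean per mouse, CLU (0.33, 0.268) and TXNIP (0.45, 0.250) at day 1, TXNIP at day 4 (0.50, 0.111) and BIK at day 7 (0.58, 0.142) were lost. With the left-out array as labelled, CLU was lost at days 1, 4 and 7 (0.33, 0.51 and 0.57), TXNIP at days 1 and 4 (0.45 and 0.35) and BIK at day 7 (0.56). The deposited table lost CLU (0.38, 0.242) and BIK (0.30, 0.361) at day 7. TXNIP at day 4 was lost with median centring (0.29, 0.202), with spots of mark 0 kept (0.49, 0.0565) and with array weights (0.42, 0.149).

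Calls were gained by BIK at day 1 with median centring (0.39), array weights (0.31) and the deposited table without that array (0.30), and at day 4 with plain background subtraction (0.41) and with arrays as units and a dye term (0.41). The last of these also gained TXNIP at day 7 (0.39) and, like array weights (0.61, adjusted p = 0.0374 by limma), TXNIP at day 14 minus the earlier days (0.59, adjusted p = 0.0266 by limma). The dim TXNIP probe 298452_A at day 2 stood at -0.08 and turned to 0.035 with loess only, to 0.031 with median centring and to 0.057 in the deposited table with or without that array. Leaving out 1 tumor, it lay between -0.25 and 0.10, with 0.10 without day 2 replicate 1. The cause of these changes was not tested.

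Probes called higher at day 14 numbered 329, between 15 without day 14 replicate 2 and 736 with array weights, and at day 1 298, between 6 with 1 mean per mouse and 777 in the deposited table without that array. Days 2, 4 and 7 ranged over 0 to 142, 0 to 85 and 0 to 116. Replicate numbers did not pair tumors (mean r of deviations 0.01 in 24 same-numbered pairs and 0.00 in 76 others), and the replicate block changed no call between days: with it, day 14 minus the earlier days was 0.40 for CLU, 0.56 for BIK and 0.55 for TXNIP (adjusted p = 0.272, 0.203 and 0.0916 by limma).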

Other observations

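The array left out as doubtful (day 4, titled replicate 4 dye swap) gave log2 ratios, taken as labelled, of -0.33 for CLU, 0.60 for BIK and -0.77, -0.42, -1.42 and -0.96 for TXNIP probes 298367_A, 359721_A, 299497_B and 298452_A. The forward array of the same tumor gave 0.74, 0.63, 0.29, 0.56, 0.68 and -0.07 for these probes. In the deposited value table, the named probes of the forward array of day 7 replicate 4 correlated at -0.19 with the values derived here from its scanner intensities, whereas the next lowest of the 31 arrays used correlated at 0.70 and 28 of them above 0.9.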
